A study of Mus musculus with 15 samples.

Results

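Satellite glial cells are the glia that wrap the cell bodies of sensory neurons in a ganglion. They take up glutamate and potassium around the neuron, convert glutamate to glutamine, and are linked to each other by gap junctions. After injury of a peripheral branch, they are known to take on a reactive state in which the intermediate filament protein GFAP and the gap junction protein connexin 43 become more abundant. The 10 genes described here are known markers of these cells, Fabp7, Glul, Slc1a3, Apoe, Gja1, S100b, Sox2, Ednrb, Gfap and Sox10. They were taken by their gene identifiers from a count table of 55573 genes, of which 16567 passed the filter on low counts, and all 10 passed it. The list was set by cell type and not by the values, but with earlier results of these data known.

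The samples were 15 trigeminal ganglia (TG), the sensory ganglia whose neurons innervate the cornea, from male CD1 mice purchased at 10 weeks of age. In every mouse the epithelium and anterior stroma of the right cornea had been removed, so the control group carried the injury too, and uninjured ganglia were not analysed here. The eyes then received vehicle, RvD6-standard or RvD6-isomer 3 times a day, and the TG of the injured side was taken on day 12. RvD6-standard is resolvin D6, a lipid mediator made from docosahexaenoic acid, and RvD6-isomer is its stereoisomer, which the study calls RvD6si. Each group had 5 samples, with replicates 1 to 5 for vehicle, 6 to 10 for RvD6-standard and 11 to 15 for RvD6-isomer. The dose given to these mice is not given in the sources used here. The ganglia were measured whole, so that fewer cells of a type and less RNA per cell cannot be told apart.

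Read counts per sample ranged from 4125962 to 9903396, with a median of 7756538. Markers of tissue around the ganglion were at different levels in the groups. The summed level of 7 skeletal muscle genes was 15.6 to 140 counts per 1000000 counted reads (CPM) in vehicle, 75.6 to 2225 in RvD6-standard and 8.58 to 26.8 in RvD6-isomer, with the highest value in RvD6-standard replicate 9. The summed level of 8 genes of bone marrow precursors was 97.9 to 511 CPM in vehicle, 551 to 1866 in RvD6-standard and 39.3 to 1415 in RvD6-isomer, where the median was 65.0 and the highest value was that of replicate 15. Neuronal markers, 9 genes, summed to 11922 to 13625, 7204 to 12827 and 10658 to 14355 CPM in the same order.

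All 10 satellite glial genes were counted in all 15 samples, with the lowest count, 9, for Sox2 in vehicle replicate 5. Many of them are not confined to satellite glia. S100b and Sox10 are also known from Schwann cells, Gfap from Schwann cells that do not form myelin, Apoe from macrophages, and Gja1 from fibroblasts and vessel walls. Defining genes of these other cells were present too. Myelinating Schwann cell genes (7 genes) summed to 14143 to 22151 CPM in vehicle, 12187 to 18326 in RvD6-standard and 13124 to 21802 in RvD6-isomer. Macrophage genes (7 genes) summed to 50.8 to 101, 56.3 to 113 and 56.8 to 95.1 CPM in the same order. Fibroblast genes (5 genes) summed to 1312 to 1595, 1320 to 2081 and 1138 to 1555 CPM. Endothelial cell genes (5 genes) summed to 90.9 to 157, 100 to 141 and 104 to 127 CPM. Against vehicle, 5 of 5 fibroblast genes had log2 fold changes above 0 in RvD6-standard and 4 of 5 in RvD6-isomer. Col1a1 was at 2.23 and 1.04 (edgeR adjusted p = 0.0967 and 0.303). Central astrocyte genes (5 genes) share several members with satellite glia by background knowledge. They summed to 77.3 to 135 CPM in vehicle, 78.2 to 138 in RvD6-standard and 79.9 to 148 in RvD6-isomer, so those ranges overlapped. In RvD6-isomer against vehicle, 2 of the 5 had log2 fold changes above 0 and 3 below. Aldh1l1 was at 1.1 (edgeR adjusted p = 0.282). Oligodendrocyte genes (5 genes) summed to 129 to 277, 93.6 to 235 and 58.7 to 340 CPM in the same order. RvD6-isomer replicate 13 was highest in both lists and was also the RvD6-isomer sample with the most Gfap. The part of central glia and of the other cells named here in the values of the members was not tested.

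Levels between genes were compared per length, as CPM divided by the exonic length in kilobases (RPKM). In vehicle, Apoe, which codes for the lipid carrier apolipoprotein E, had the highest level of the 10, 3132 ± 244 RPKM (SD, n = 5), above 99.9% of the genes tested. S100b, a small calcium-binding protein, followed with 844 ± 91.3 RPKM, and Fabp7, a fatty acid binding protein of glia and their precursors, with 279 ± 66.3 RPKM. The ranges of these 3 genes did not overlap with each other or with the next gene. Glul (glutamine synthetase) and Ednrb (endothelin receptor type B) came next, at 54.6 ± 13.5 and 38.4 ± 7.62 RPKM, and their ranges overlapped. The other 5 genes were far lower and each overlapped its neighbour in the order, Sox10 at 6.16 ± 1.42, Gfap at 5.30 ± 2.05, Slc1a3 at 3.60 ± 0.761, Sox2 at 2.30 ± 1.18 and Gja1 at 1.29 ± 0.451 RPKM. Gfap lay above 56.6% of the genes tested. The first 3 places were the same in all 3 groups.

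The first question is how the ganglia of mice given RvD6-isomer differed from those given vehicle. Gfap and Gja1 were higher and Apoe lower in all 5 RvD6-isomer samples than in every vehicle sample, yet none of the 10 genes passed the test across all genes. With the quasi-likelihood test of edgeR, 0 of 10 members had a Benjamini-Hochberg adjusted p under 0.05, against 0.670% of all genes tested (111 of 16567). At an unadjusted p under 0.05 there were 6 of 10, with 3 higher, against 8.69% of all genes in that direction, and 3 lower, against 7.30%. The groups did not overlap for 3 of 10, against 4.88% of all genes, with 2 members higher (2.48% of all genes) and 1 lower (2.40%). The median log2 fold change of the 10 members was 0.01, and that of all genes 0.02.

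**Figure D1:**
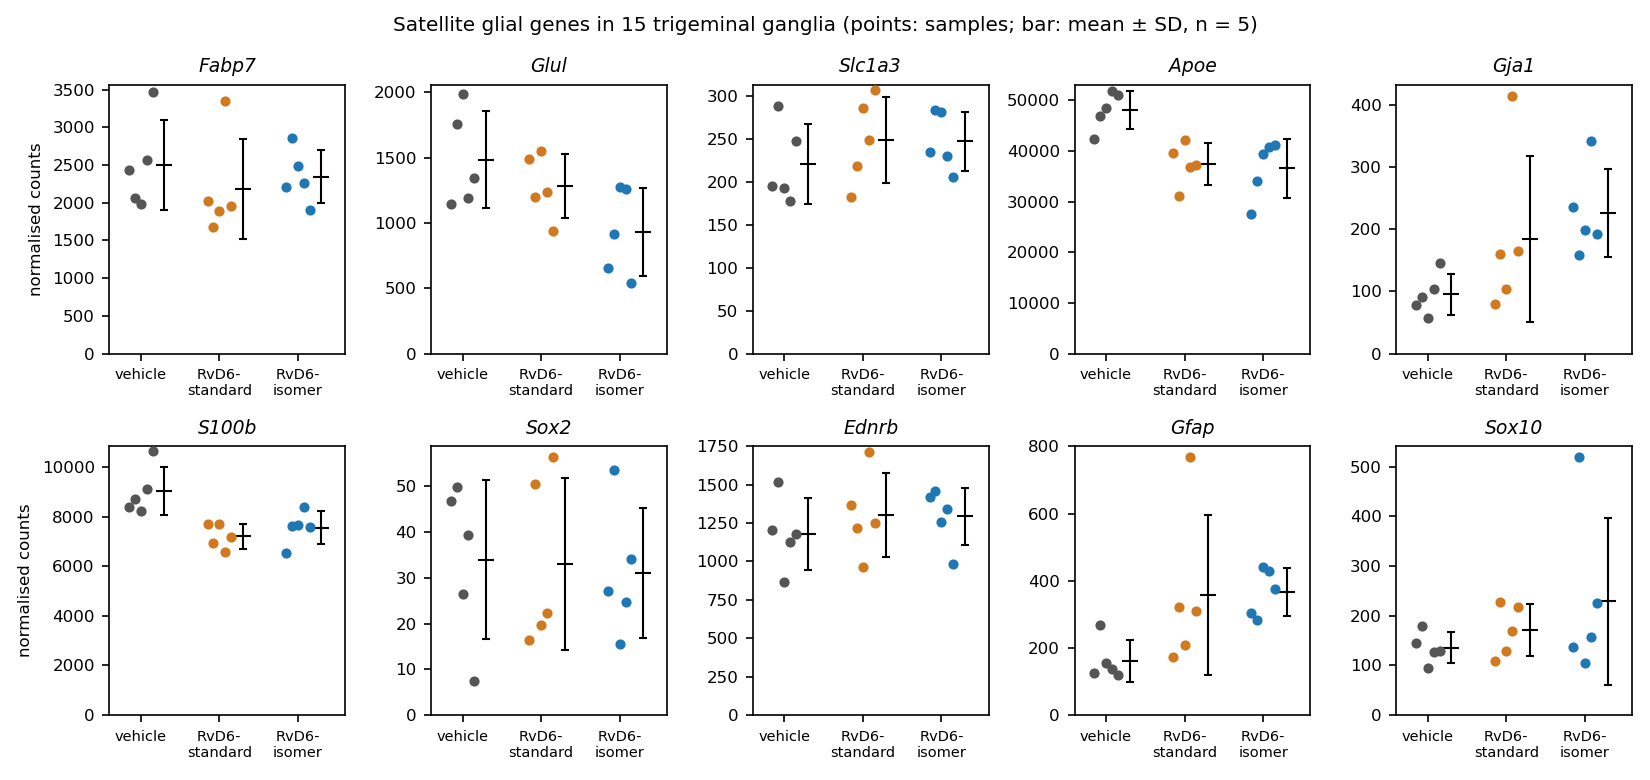
Normalised counts (count divided by the DESeq2 size factor, linear axis from 0) of the 10 satellite glial genes, 1 panel a gene, with 1 point for each of the 5 samples of a group and the mean ± SD beside them. All 5 RvD6-isomer points of Gfap (284 to 442) and Gja1 (158 to 341) lie above the vehicle points (118 to 269 and 57.8 to 146), those of Apoe lie below, and 1 RvD6-standard sample stands far above its group for Gfap (768) and Gja1 (414).

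Gfap codes for glial fibrillary acidic protein, the intermediate filament of reactive glia, and lies on chromosome 11 (GRCm38, 102887336 to 102900912, minus strand). Its normalised counts in vehicle replicates 1 to 5 were 125, 269, 155, 137 and 118. In RvD6-isomer replicates 11 to 15 they were 305, 284, 442, 429 and 375. The lowest RvD6-isomer sample was just above the highest vehicle sample, replicate 2, which stood apart from the other vehicle samples. The means were 367 ± 71.4 and 161 ± 61.9 (SD, n = 5 each), and the log2 fold change was 1.19 (SE 0.34, 95% interval 0.48 to 1.90), a 2.28-fold higher level. The adjusted p of edgeR was 0.0953. DESeq2 called the gene (Benjamini-Hochberg adjusted p = 0.0124), as did edgeR with only these groups in the fit (0.0329), with at least 10 counts required in every sample (0.0493) or without RvD6-standard replicate 9 (0.0291). The other alternatives did not call it, with edgeR adjusted p up to 0.128. With samples left out in turn it was called in 1 of 15 fits, with edgeR adjusted p up to 0.201. The two-sided exact permutation test on the normalised counts gave p = 0.00794, the smallest that 5 against 5 samples allow.

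Gja1 codes for connexin 43, the main gap junction protein of satellite glia, and lies on chromosome 10 (56377330 to 56402513, plus strand). The vehicle samples held 77.9, 90.8, 57.8, 103 and 146 normalised counts. The RvD6-isomer samples held 236, 158, 199, 341 and 192. Again the lowest treated value, in replicate 12, was near the highest vehicle value, in replicate 5. The log2 fold change was 1.24 (SE 0.38, 95% interval 0.45 to 2.03), or 2.36-fold higher, with an edgeR adjusted p of 0.112 and an exact permutation p of 0.00794. DESeq2 called it (adjusted p = 0.0212), and so did edgeR with only these groups (0.0482) or without RvD6-standard replicate 9 (0.0438). The other alternatives did not call Gja1, with edgeR adjusted p up to 0.184. With samples left out in turn it was called in 1 of 15 fits, with edgeR adjusted p up to 0.245. At 72 to 330 counts per sample over both groups, Gja1 was thinly covered for its length of 10257 exonic bases.

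Apoe, on chromosome 7 (19696109 to 19699188, minus strand), was among the most counted genes of the ganglion. Vehicle samples held 42416, 46971, 48528, 51767 and 51127 normalised counts. RvD6-isomer samples held 27553, 34022, 39325, 40848 and 41177. Every treated sample was below every vehicle sample, by a narrow margin for replicates 14 and 15. With a log2 fold change of -0.40 (SE 0.12, 95% interval -0.65 to -0.15), the level was 0.758 times that of vehicle. edgeR gave an adjusted p of 0.104, the exact permutation test 0.00794, and DESeq2 called the gene (adjusted p = 0.0282). After removal of each sample's trend on gene length the log2 fold change was -0.27.

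S100b, on chromosome 10 (76253853 to 76261159, plus strand), held 8396, 8688, 8225, 9113 and 10637 normalised counts in vehicle. In RvD6-isomer it held 6547, 7609, 7676, 8387 and 7562. Only replicate 14 of RvD6-isomer reached into the vehicle range. The log2 fold change was -0.26 (SE 0.10, edgeR adjusted p = 0.230, exact permutation p = 0.0159), and with the gene length trend removed it was -0.07.

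Glul, whose product makes glutamine from the glutamate that glia take up, lies on chromosome 1 (153899944 to 153909723, plus strand). Vehicle samples held 1147, 1755, 1988, 1191 and 1342 normalised counts. RvD6-isomer samples held 656, 912, 1274, 1258 and 543. Replicates 11, 12 and 15 were below all vehicle samples, while replicates 13 and 14 lay inside the vehicle range. The log2 fold change was -0.68 (SE 0.23, edgeR adjusted p = 0.152, exact permutation p = 0.0556). The value of Glul is uncertain, because the pseudogene Glns-ps1 resembles its transcript and reads that align to several places may have been lost or assigned to either gene. Glns-ps1, looked at after the values were seen, held 94 to 477 counts per sample and had a log2 fold change of -0.63 (edgeR adjusted p = 0.131). Glul also shares 5.5% of its exonic bases with the microRNA gene Mir8114 or with Teddm2 on the other strand, and the protocol keeps no strand.

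Sox10, a transcription factor needed for all peripheral glia, lies on chromosome 15 (79154908 to 79165240, minus strand). It held 146, 180, 94.7, 127 and 128 normalised counts in vehicle, and 137, 519, 105, 157 and 226 in RvD6-isomer. Replicates 12 and 15 were above all vehicle samples, replicate 12 by far the more. With replicate 12 the log2 fold change was 0.75 (SE 0.36, edgeR adjusted p = 0.310, exact permutation p = 0.246), and without it 0.20.

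The other 4 genes overlapped widely between RvD6-isomer and vehicle. Fabp7 ranged from 1980 to 3472 normalised counts in vehicle and from 1907 to 2861 in RvD6-isomer, with a log2 fold change of -0.10 (95% interval -0.50 to 0.30). Slc1a3, the glutamate transporter GLAST, ranged from 178 to 289 and from 206 to 284, with a log2 fold change of 0.16 (-0.24 to 0.56). Ednrb ranged from 867 to 1518 and from 983 to 1456, with a log2 fold change of 0.13 (-0.22 to 0.48). Each of these 3 intervals includes differences larger in size than the -0.40 of Apoe. Sox2, a transcription factor of glial precursors that mature satellite glia keep, had only 9 to 67 counts per sample in these groups, and with its interval of -1.20 to 0.93 a difference was not detectable at this depth and spread between samples.

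The promoter windows of the 4 genes whose lipid and vehicle samples did not overlap in at least 1 of these comparisons are shown for reference, Gfap and Gja1 from the higher and Apoe and S100b from the lower side. Each runs from 250 bases before the RefSeq start of transcription to 20 bases after it (GRCm38.p6), 5′ to 3′ on the strand of the gene. Capitals mark matches, on either strand, to the SOX core ACAANG, the STAT core TTCNNNGAA or the AP-1 site TGAGTCA.
Gfap, chr11:102897181-102897450, minus strand: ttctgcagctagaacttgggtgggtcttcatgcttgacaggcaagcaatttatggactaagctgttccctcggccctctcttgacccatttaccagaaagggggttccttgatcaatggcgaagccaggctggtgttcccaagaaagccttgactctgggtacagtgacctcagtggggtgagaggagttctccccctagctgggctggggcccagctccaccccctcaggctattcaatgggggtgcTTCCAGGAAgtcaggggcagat
Gja1, chr10:56377050-56377319, plus strand: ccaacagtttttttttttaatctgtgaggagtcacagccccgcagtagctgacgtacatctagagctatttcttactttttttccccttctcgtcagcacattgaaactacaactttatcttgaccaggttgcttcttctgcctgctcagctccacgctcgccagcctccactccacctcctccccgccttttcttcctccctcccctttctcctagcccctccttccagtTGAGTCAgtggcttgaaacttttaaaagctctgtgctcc
Apoe, chr7:19699169-19699438, minus strand: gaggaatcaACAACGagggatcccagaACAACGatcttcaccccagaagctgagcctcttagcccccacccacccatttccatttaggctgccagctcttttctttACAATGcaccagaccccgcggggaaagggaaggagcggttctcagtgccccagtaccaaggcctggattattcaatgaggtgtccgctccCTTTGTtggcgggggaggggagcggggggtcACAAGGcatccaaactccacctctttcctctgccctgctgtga
S100b, chr10:76253586-76253855, plus strand: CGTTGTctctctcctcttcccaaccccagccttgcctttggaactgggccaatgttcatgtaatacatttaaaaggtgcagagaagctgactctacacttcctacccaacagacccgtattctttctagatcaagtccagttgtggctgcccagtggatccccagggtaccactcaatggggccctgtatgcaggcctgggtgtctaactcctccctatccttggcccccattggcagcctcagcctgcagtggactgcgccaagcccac

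The Gfap window held 1 STAT core, which spans the start of transcription, and the Gja1 window 1 AP-1 site, 19 bases before the start. The Apoe window held 5 SOX cores and the S100b window 1. Windows of 300 bases were found for 9 of the 10 members (for Apoe the outermost of 3 starts was used). Among them 5 held the SOX core, 2 the STAT core and 1 the AP-1 site, and of 32851 mouse promoter windows of the same length 41.2%, 8.3% and 5.2% held each motif. No matches of different motifs overlapped. The RefSeq start of Gfap lies inside the span of the gene given above, whose annotation reaches further upstream. A match describes the letters only, and binding was not measured.

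The second question is how RvD6-standard differed from vehicle. Here Apoe and S100b were lower in all 5 treated samples, and Gfap and Gja1 had means near those of RvD6-isomer but with much wider spread. edgeR called 0 of 10 members, against 0% of all genes tested, and DESeq2 called 369 genes in all, Gfap among the members. At an unadjusted p under 0.05 edgeR had 2 of 10 members higher, against 7.63% of all genes (1264 genes), and 2 lower, against 5.99% (992 genes). Groups did not overlap for 2 of 10 members, against 3.72% of all genes, with 0 members higher (2.25% of all genes) and 2 lower (1.47%). These comparisons share the vehicle samples with the comparisons of RvD6-isomer above.

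Apoe in RvD6-standard held 39678, 31036, 42104, 36929 and 37181 normalised counts. The highest, in replicate 8, lay just below the lowest vehicle sample, 42416. This gave a log2 fold change of -0.38 (SE 0.12, edgeR adjusted p = 0.191, exact permutation p = 0.00794). S100b held 7691, 6918, 7693, 6552 and 7164 normalised counts, all below the lowest vehicle value of 8225. Its log2 fold change was -0.34 (SE 0.10, edgeR adjusted p = 0.191, exact permutation p = 0.00794), and -0.20 with the gene length trend removed.

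For Gfap the RvD6-standard samples held 174, 323, 210, 768 and 309 normalised counts. Replicate 9 was far above the others, and replicates 6 and 8 lay inside the vehicle range. The log2 fold change was 1.13 (SE 0.34, edgeR adjusted p = 0.177), and DESeq2 called the gene (adjusted p = 0.0425). The exact permutation p was 0.0556 on the linear scale and 0.0397 on the log2 scale. Without replicate 9 the log2 fold change was 0.64 (edgeR adjusted p = 0.434).

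Gja1 showed the same outlying sample, with 79.7, 160, 104, 414 and 164 normalised counts in replicates 6 to 10. Replicates 7, 9 and 10 were above all vehicle samples, and replicates 6 and 8 were not. The log2 fold change was 0.93 (SE 0.38, edgeR adjusted p = 0.297, exact permutation p = 0.0952), and 0.39 without replicate 9. Replicate 9 was also the sample with the most muscle RNA. With the muscle marker score as a covariate the log2 fold change against vehicle was 0.26 for Gja1 and 0.66 for Gfap in RvD6-standard, and 1.43 and 1.28 in RvD6-isomer. The muscle sums differed by group, at 75.6 to 2225 CPM in RvD6-standard and 8.58 to 26.8 in RvD6-isomer. Score and group are thus partly confounded, and such fits cannot fully separate them.

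The 6 other genes had log2 fold changes nearer to 0 between RvD6-standard and vehicle. Glul had a log2 fold change of -0.22, Fabp7 of -0.21, Sox2 of -0.05, Ednrb of 0.13, Slc1a3 of 0.16 and Sox10 of 0.32, with edgeR adjusted p-values from 0.660 to 0.975. Fabp7 was again highest in replicate 9, at 3352 normalised counts against 1681 to 2024 in the other 4 samples, and without that replicate its log2 fold change was -0.43 (edgeR adjusted p = 0.400). With the muscle marker score as a covariate, under the limit just given, it was -0.75 (adjusted p = 0.404).

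**Figure D2:**
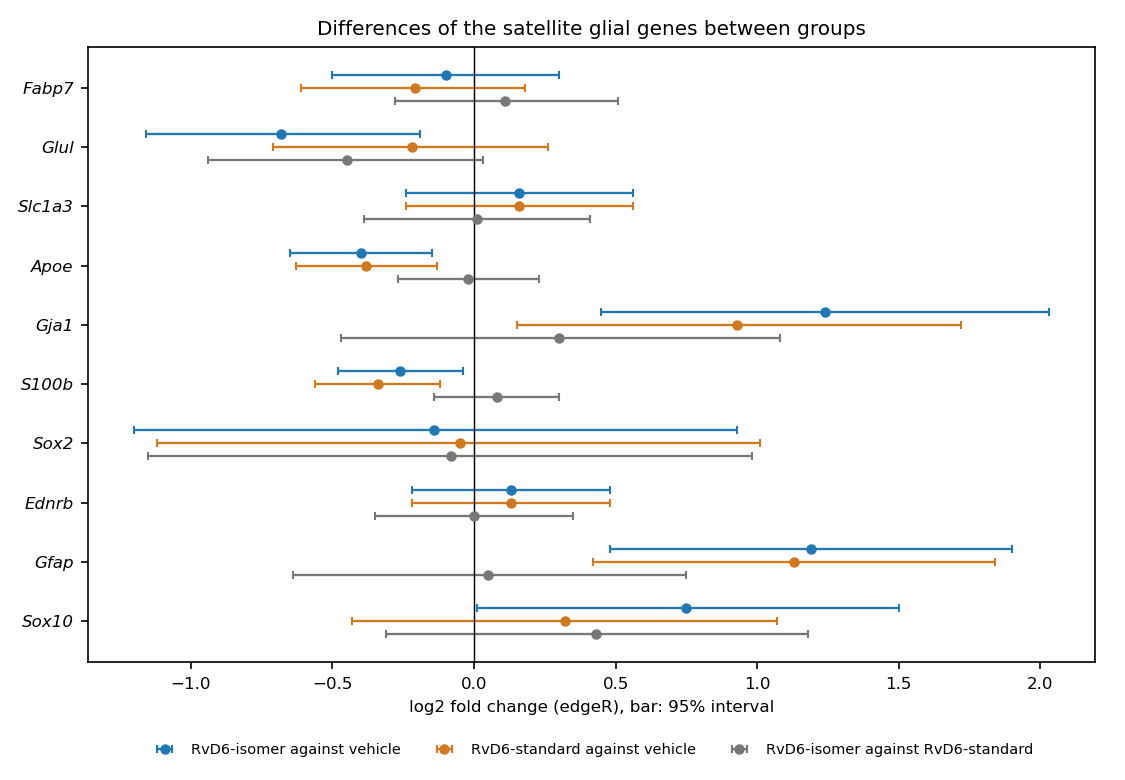
Log2 fold change of each satellite glial gene (edgeR, horizontal axis) with its 95% interval for RvD6-isomer against vehicle, RvD6-standard against vehicle and RvD6-isomer against RvD6-standard. In both comparisons with vehicle the intervals of Gfap, Gja1, Apoe and S100b lie to 1 side of 0, while every interval between the lipids includes 0.

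The third question is whether the stereoisomers differed from each other. They were given on the same schedule and compared on the same day, over the 10 members, with p-values adjusted over all genes tested. edgeR called 0 of 10 members, against 0.235% of all genes, and 0 of 10 had an unadjusted p under 0.05, against 8.82% of all genes. The groups overlapped for all 10, while they did not overlap for 1.74% of all genes. DESeq2 called 0 of the members and 185 genes in all.

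For Gfap the log2 difference of RvD6-isomer over RvD6-standard was 0.05 (95% interval -0.64 to 0.75), and for Gja1 0.30 (-0.47 to 1.08). These intervals are wide, and without RvD6-standard replicate 9 the differences were 0.55 for Gfap and 0.84 for Gja1 (edgeR adjusted p = 0.523 and 0.364). The narrowest intervals were those of Apoe, with a difference of -0.02 (-0.27 to 0.23), and of S100b, with 0.08 (-0.14 to 0.30). Glul had the difference nearest to the threshold, -0.45 (-0.94 to 0.03), with 3 of 5 RvD6-isomer samples below all RvD6-standard samples and an edgeR adjusted p of 0.598. Ednrb (0.00, -0.35 to 0.35), Slc1a3 (0.01, -0.39 to 0.41) and Fabp7 (0.11, -0.28 to 0.51) had intervals of similar width. Sox10 (0.43, -0.31 to 1.18) and Sox2 (-0.08, -1.15 to 0.98) were too variable or too thinly counted to bound a difference closely.

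**Figure D3:**
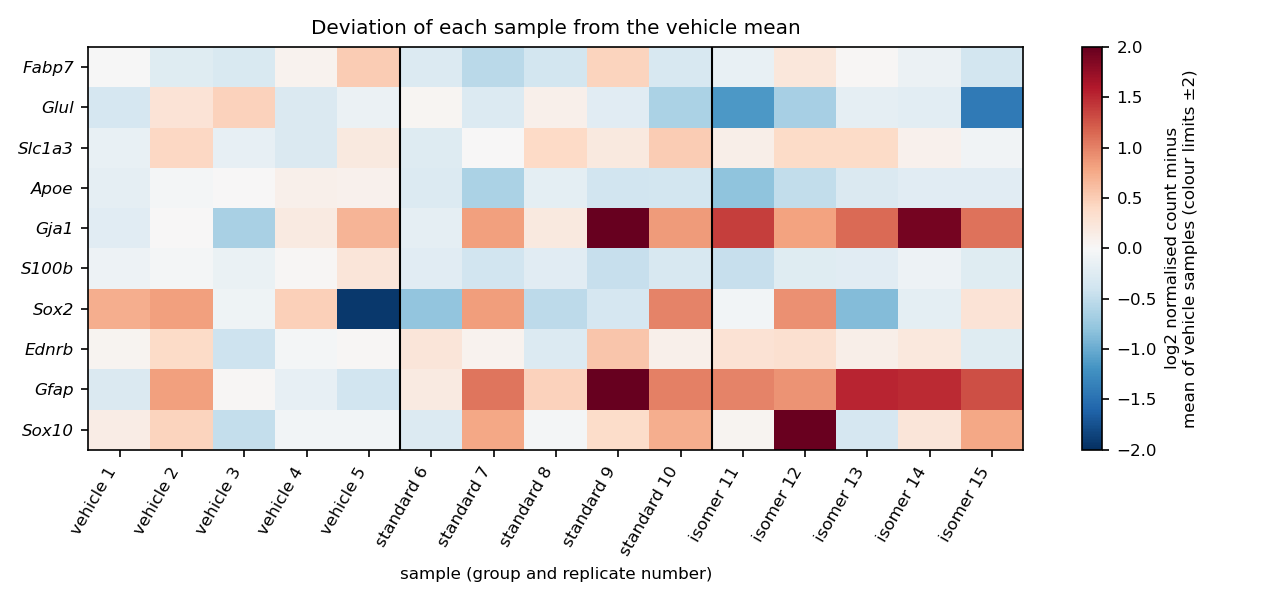
Log2 normalised count of each satellite glial gene (rows) in each sample (columns, by group and replicate number) minus the mean log2 value of the 5 vehicle samples, with colours limited to ±2. Red for Gfap and Gja1 runs through all RvD6-isomer samples but is strongest in RvD6-standard replicate 9, and the strongest Sox10 deviation is that of RvD6-isomer replicate 12 (519 normalised counts), followed in that group by replicate 15 (226).

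The members did not vary as a block from sample to sample. After centring on group means, the correlation of log2 CPM over the 15 samples was between -0.53 and 0.72 (Pearson) for the 45 pairs of members, with a median of 0.10. The highest Pearson correlation was that of Apoe and S100b (r = 0.72, rho = 0.74), and the highest Spearman correlation that of Sox2 and Sox10 (r = 0.65, rho = 0.77). For Gja1 and Gfap, both high in RvD6-standard replicate 9, r was 0.68 and rho 0.42. These are descriptions, as all values of a sample share its library and depth. The 100 genes most like each member held no other member, except that those of Gfap held Gja1. The gene most like Gfap was Zfp930 (r = 0.95), that most like Gja1 was Rab33b (r = 0.85), and that most like Apoe was Slc52a3 (r = 0.91). For S100b it was Acot6 (r = 0.88), for Fabp7 Cavin1 (r = 0.88), for Slc1a3 Gm26789 (r = 0.90) and for Ednrb Dcun1d4 (r = 0.84). For Sox2 it was Usp7 (r = 0.95), for Sox10 Purb (r = 0.94), and for Glul its pseudogene Glns-ps1 (r = 0.90). Spread within a group also differed, with an SD of log2 values of 0.13 for S100b and 0.19 for Apoe, but 0.57 for Gfap, 0.63 for Gja1 and 0.81 for Sox2.

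Markers of Schwann cells that do not form myelin had higher mean levels in the lipid groups too, like Gfap, Gja1 and Sox10. The 5 genes of that list (Scn7a, Ngfr, L1cam, Ncam1, Cadm2) summed to 301 to 434 CPM in vehicle, 338 to 557 in RvD6-standard and 410 to 687 in RvD6-isomer, so the ranges overlapped. All 5 had log2 fold changes above 0 against vehicle in both lipids, with medians of 0.44 for RvD6-isomer and 0.25 for RvD6-standard. Of these genes edgeR called 0 of 5 in each, against 0.670% and 0% of all genes tested. Ngfr, the low-affinity neurotrophin receptor, had log2 fold changes of 0.73 and 0.50. In each lipid group 1 sample stood apart for Ngfr. RvD6-isomer replicate 11 was at 155 CPM, against at most 76.5 in the rest of its group. RvD6-standard replicate 9 was at 122 CPM, against at most 61.2 in the rest of its group. The highest vehicle sample was at 58.4 CPM. Replicate 11 was also the highest sample for L1cam (128 CPM) and for the sum of the list (687 CPM). Myelinating Schwann cell genes went both ways, with 5 of 7 above 0 in RvD6-isomer and 3 of 7 in RvD6-standard (medians 0.23 and -0.05). In RvD6-isomer 2 were higher and 1 lower at an unadjusted p under 0.05, against 8.69% and 7.30% of all genes. Prx was at 0.83 (edgeR adjusted p = 0.0706) and Ncmap at -0.49 (adjusted p = 0.106). Of 9 neuronal markers 5 were above 0 in RvD6-isomer and 1 in RvD6-standard. The part of these cells in the Gfap and Gja1 values was not tested.

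Genes that work with the members were counted in 10 related lists, and edgeR called 0 genes of these lists in any of the 3 comparisons. Of all genes tested it called 0.670% in RvD6-isomer against vehicle, 0% in RvD6-standard against vehicle and 0.235% between the lipids. With shares so low, the absence of calls says little about these lists. Among 9 genes of glutamate uptake and the glutamine cycle, 2 were higher against vehicle at an unadjusted p under 0.05 in RvD6-isomer (8.69% of all genes were) and 1 was lower in RvD6-standard (5.99%), with list medians of 0.23 and 0.09 on the log2 scale. The lowest p was that of Slc38a1, a glutamine transporter that takes glutamine up into neurons. It held 491 to 740 normalised counts in RvD6-isomer and 282 to 408 in vehicle without overlap, with a log2 fold change of 0.74 (SE 0.17, edgeR adjusted p = 0.0529), and 0.18 (adjusted p = 0.690) in RvD6-standard. Got1, an enzyme that interconverts glutamate and aspartate, had the lowest p of this list in RvD6-standard, with a log2 fold change of -0.46 (adjusted p = 0.286).

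Of 12 gap junction and pannexin genes 10 could be tested. At an unadjusted p under 0.05, 1 was higher in RvD6-isomer, near the 8.69% of all genes, and in RvD6-standard 1 was higher and 2 were lower, against 7.63% and 5.99%. The gene in RvD6-isomer was Tjp1, whose product ZO-1 binds connexin 43, with log2 fold changes of 0.58 in RvD6-isomer and 0.57 in RvD6-standard (edgeR adjusted p = 0.219 and 0.303). In RvD6-standard the lowest p of the list was that of Gja4, which codes for connexin 37, at -1.01 (adjusted p = 0.275). The list medians were 0.17 and 0.11.

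In the fatty acid binding family beside Fabp7, 7 of 9 genes could be tested. Fabp3 held 140 to 190 normalised counts in RvD6-isomer, 163 to 238 in RvD6-standard and 242 to 299 in vehicle, so that both lipid groups lay wholly below vehicle. Its log2 fold changes were -0.71 (edgeR adjusted p = 0.0586) and -0.39 (0.319). Fabp4, a gene of fat cells and vessels, was thinly counted and had a log2 fold change of 2.65 in RvD6-standard (adjusted p = 0.242), with 23.4 to 64.5 normalised counts against 0 to 16.7 in vehicle. In the apolipoprotein E pathway, 12 of 13 genes could be tested. Apod, another glial lipid carrier, had log2 fold changes of -0.33 in RvD6-isomer and -0.21 in RvD6-standard (adjusted p = 0.199 and 0.487), and Lpl, lipoprotein lipase, had 1.62 in RvD6-standard (adjusted p = 0.177).

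Among S100 genes beside S100b, 6 of the 9 tested had log2 fold changes below 0 in RvD6-isomer, 4 of them with an unadjusted p under 0.05, against 7.30% of all genes lower, and the median was -0.45, against 0.02 for all genes. The gene length trend, whose removal moved S100b itself from -0.26 to -0.07, was not taken out of these values. In RvD6-standard 2 were higher and 1 lower at that p, against 7.63% and 5.99%. S100a10, a partner of annexin, had the lowest p in RvD6-isomer, at -0.45, and was at -0.38 in RvD6-standard (edgeR adjusted p = 0.121 and 0.262). The lowest p in RvD6-standard was that of S100a9, a gene of neutrophils and their precursors. It held 1031 to 3278 normalised counts in RvD6-standard and 146 to 754 in vehicle (log2 fold change 2.61, adjusted p = 0.212), beside the marrow precursor genes described above.

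**Figure D4:**
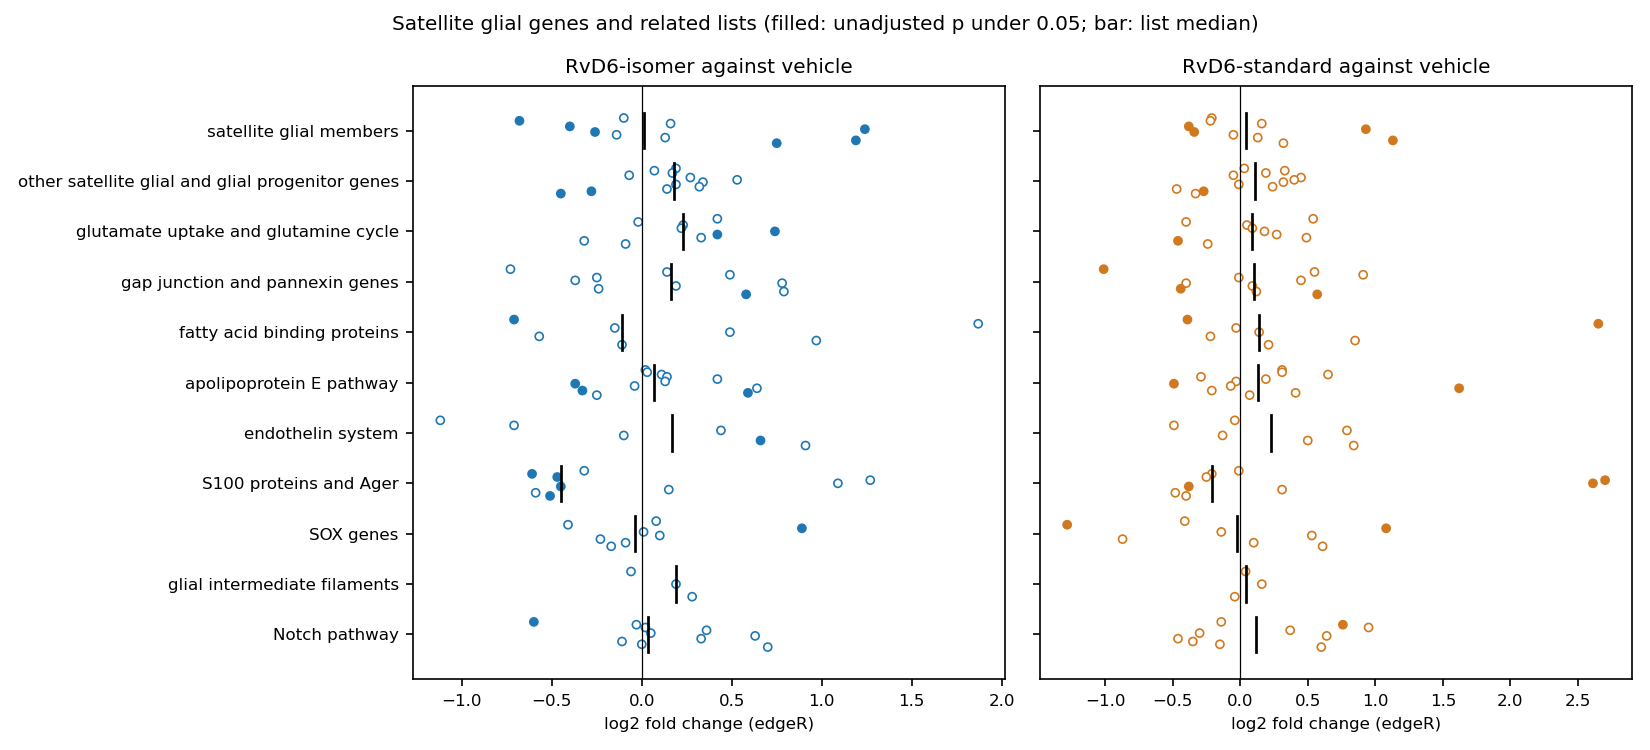
Log2 fold changes (edgeR) of the satellite glial genes and of the tested genes of the 10 related lists in RvD6-isomer against vehicle (left) and RvD6-standard against vehicle (right), with 1 point a gene, filled where the unadjusted p was under 0.05, and a bar at the list median. The medians of the members are 0.01 and 0.04, and the S100 list has the lowest median of all lists in RvD6-isomer, -0.45. The gene length trend was not taken out of the values shown.

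The SOX, Notch and endothelin lists were counted at an unadjusted p under 0.05. Against vehicle, RvD6-isomer had 1 of 8 SOX and 1 of 6 endothelin genes higher and 1 of 10 Notch genes lower. RvD6-standard had 1 SOX and 1 Notch gene higher and 1 SOX gene lower. Of all genes 8.69% were higher and 7.30% lower in RvD6-isomer, and 7.63% and 5.99% in RvD6-standard. Between the lipids 2 of 10 Notch genes were lower, against 8.82% of all genes in either direction. Of 8 SOX genes tested beside Sox2 and Sox10, Sox6 had the lowest p in both lipids, with log2 fold changes of 0.89 in RvD6-isomer and 1.08 in RvD6-standard (edgeR adjusted p = 0.202 and 0.191). Of 10 Notch pathway genes tested, Notch1 had -0.60 in RvD6-isomer, where 250 to 312 normalised counts lay just below the 315 to 548 of vehicle (adjusted p = 0.144), and Notch2 had 0.76 in RvD6-standard (adjusted p = 0.205). In the endothelin system around Ednrb, Ece1, which activates endothelin, had the lowest p of 6 genes in both lipids, with log2 fold changes of 0.66 and 0.50 (adjusted p = 0.268 and 0.466). The other filament genes of glia, Vim, Nes and Synm, all had an unadjusted p above 0.05, with Synm at 0.28 in RvD6-isomer and Nes at 0.16 in RvD6-standard, beside the 1.19 and 1.13 of Gfap.

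Of 12 other genes of satellite glia and their precursors, 9 had log2 fold changes above 0 against vehicle in RvD6-isomer and 7 in RvD6-standard. The medians were 0.18 and 0.11, against 0.02 for all genes in both. Of these 12 genes edgeR called 0, against 0.670% and 0% of all genes tested. The lowest p-values were on the other side. Dbi, an acyl-CoA binding protein rich in satellite glia, had log2 fold changes of -0.45 and -0.33 (adjusted p = 0.210 and 0.417). Ptn, the growth factor pleiotrophin, had -0.28 and -0.27 (adjusted p = 0.291 and 0.364).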

How the data were processed

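RNA of each TG was made into full-length cDNA with an adapted Smart-seq2 protocol and into libraries by tagmentation, which keeps no strand. The authors used Rsubread to align reads to GRCm38 with GENCODE release 22 annotation and ran featureCounts on exons, summed by gene. What they deposited is the table of raw counts, not normalized, beside the exonic length of each gene. The table header names featureCounts 1.5.0-p1, while the submitters' processing notes name Subread 1.6.5 and R 3.6.1. No option for strand or for reads with several alignments is named. Each of the 15 sample columns has a labelled group, and 0 columns were left over. Symbols and coordinates came from the release 21 annotation on the same genome, which named 99.7% of the identifiers, and promoter windows from RefSeq (GRCm38.p6).

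The members and all gene lists were chosen with earlier results of these data known. Named in the text are all members, the gene of each related list with the lowest p in each lipid against vehicle, and the gene most correlated with each member. Single genes of the marker lists are named beside the counts of their list. Counts were tested with the quasi-likelihood F test of edgeR 4.0.16 in R 4.3.3 (limma 3.58.1), with all 15 samples and 3 groups in 1 fit, TMM normalization, its filter on low counts (minimum count 10, minimum total 15) and Benjamini-Hochberg adjustment over 16567 genes at a threshold of 0.05. DESeq2 1.42.0 was an alternative, and the study's own tool. Normalised counts are counts divided by DESeq2 size factors. They were compared by two-sided exact permutation tests over 252 assignments, for 10 members and 3 pairs of groups, without adjustment (30 tests, SciPy 1.17.1). The steps were tested on simulated counts. Correlations used log2 CPM (prior count 2).

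Between samples of the same group, chi-square divided by its degrees of freedom was 11.3 to 49.2 (genes with 20 counts or more). No sample was therefore a copy of another, and for such genes samples differed by more than counting error. Each sample is labelled as a sample of its own, but the labels do not say whether samples came from separate mice. The p-values set differences between groups against the spread between these samples. Alternatives were DESeq2, a fit of only the groups compared, RLE normalization (median of ratios), dropping the filter, requiring 10 counts or more in every sample, taking out the trend of a sample on gene length (lowess, span 0.3), a muscle or a marrow marker score as covariate, each sample left out in turn and, for the permutation tests, a log2 scale or TMM normalization.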

Additional observations from a re-analysis of the deposited data

Results flagged for a closer look

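In each of 30 groups of 5 samples (10 genes, 3 groups) the sample farthest from the rest was compared with Dixon's limit of 0.71 for the gap as a share of the range, and 4 passed it. For normal values about 1 in 20 groups passes that limit. Whether this rate holds for these counts was not tested, and the 10 genes share their samples. RvD6-standard replicate 9 accounted for 3 of the 4, with 3352 normalised counts of Fabp7, 414 of Gja1 and 768 of Gfap. The same sample had the highest summed muscle marker level, 2225 CPM, and without it the log2 fold changes of Gfap and Gja1 in RvD6-standard against vehicle were 0.64 and 0.39. The covariate fit given above cannot fully separate muscle RNA from group, and the part of muscle RNA in these values was not tested. Vehicle replicate 2 was the fourth, with 269 normalised counts of Gfap. Without it the log2 fold change of Gfap was 1.45 in RvD6-isomer and 1.40 in RvD6-standard (edgeR adjusted p = 0.0807 and 0.200).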

How the results depend on the processing

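The count of satellite glial genes called in RvD6-isomer against vehicle, 0 by edgeR with all samples, was 3 by DESeq2 (Apoe, Gja1 and Gfap), 2 with only the groups compared (Gja1 and Gfap), 1 with at least 10 counts in every sample (Gfap) and 0 to 2 when each sample was left out, where only the fit without RvD6-standard replicate 9 gave 2. In RvD6-standard against vehicle DESeq2 called 1 (Gfap), and leaving out samples gave 0 to 0. Over the alternatives other than leaving out samples, the adjusted p of Gfap ran from 0.0124 to 0.128 in RvD6-isomer and from 0.0425 to 0.663 in RvD6-standard, that of Gja1 from 0.0212 to 0.184 and from 0.181 to 0.892, and that of Apoe from 0.0282 to 0.244 and from 0.0993 to 0.514. Gfap, Gja1, Apoe, S100b, Sox10 and Slc1a3 kept their direction against vehicle in both lipids under every alternative. For Slc1a3 the lowest values were 0.02 in RvD6-isomer and 0.01 in RvD6-standard, so a kept direction does not mark a large difference. The causes of these changes were not tested. No paired analysis was possible because the groups share no replicate number.

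The background counts over all genes moved more. DESeq2 called 920 genes in RvD6-isomer against vehicle, 369 in RvD6-standard against vehicle and 185 between the lipids. At least 10 counts in every sample gave 315, 24 and 23. Removal of the length trend gave 63 in RvD6-isomer. The marrow score gave 44, 1 and 3, and the muscle score 2 in RvD6-standard and 2 between the lipids. No filter gave 56 and 59 in the latter 2 comparisons, and fits of only the groups compared 38 and 17. Leaving out 1 sample gave 0 to 229 calls in RvD6-isomer, 0 to 51 in RvD6-standard and 2 to 156 between the lipids. In RvD6-isomer against vehicle the count of 111 was 0 without RvD6-isomer replicate 11, 168 without 12, 68 without 13 and 9 without 14. It was 229 without RvD6-standard replicate 9, and 13, 12, 6, 12 and 8 without vehicle replicates 1 to 5. In RvD6-standard against vehicle it was 51 without RvD6-isomer replicate 15, 17 without RvD6-standard replicate 7 and 1 without vehicle replicate 2. Between the lipids it was 2 without RvD6-isomer replicate 11, 13 or 14, 156 without 15, 13 without RvD6-standard replicate 8 or 9 and 25 without 10.

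Some log2 fold changes turned direction, and none of them was called by edgeR with all samples. Against vehicle, Fabp7 in RvD6-isomer was 0.11 with the length trend removed and 0.04 with the muscle score, and Sox2 was 0.00 with the length trend removed. In RvD6-standard, Sox2 was 0.07 with the length trend removed and 0.55 with the muscle score, Fabp7 was 0.08 and Glul 0.21 (from -0.22) with the marrow score, and Ednrb was -0.05 with the muscle score. Between the lipids, Ednrb was -0.01 by DESeq2 and with RLE, -0.03 with at least 10 counts in every sample, -0.04 with the length trend removed and -0.36 with the marrow score. Slc1a3 was -0.00 with RLE, -0.02 with at least 10 counts in every sample and -0.28 with the marrow score. With the marrow score, Fabp7 was -0.24, Apoe 0.06, Gja1 -0.06 (from 0.30), Sox2 0.17 and Gfap -0.21, while the muscle score moved Fabp7 to 0.79, Gja1 to 1.17, Gfap to 0.62 and Sox2 to -0.91. Glul between the lipids was -1.01 with the marrow score and -0.27 with the muscle score. None of these was called (edgeR adjusted p of 0.589 or more). Between the lipids the muscle sums did not overlap, so the fits with the muscle score cannot fully separate score from group. Apoe was 0.20 with the muscle score and 0.00 without a filter. Leaving out samples gave, between the lipids, -0.08 to 0.07 for Apoe, -0.08 to 0.12 for Ednrb, -0.11 to 0.55 for Gfap, -0.08 to 0.10 for Slc1a3, -0.12 to 0.61 for Sox10 (0.43 with all samples, -0.12 without RvD6-isomer replicate 12) and -0.37 to 0.20 for Sox2. Against vehicle it gave -0.17 to 0.06 for Fabp7 and -0.43 to 0.03 for Sox2 in RvD6-isomer, and -0.34 to 0.12 for Sox2 in RvD6-standard. In the exact permutation tests the sign of the mean difference turned for Slc1a3 (p = 1.00 on the log2 scale, 0.984 with TMM) and Ednrb (0.992 and 1.00) between the lipids. It also turned for Sox2 on the log2 scale against vehicle (exact permutation p = 0.992 in RvD6-isomer and 0.944 in RvD6-standard).

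Sox2 had the fewest counts, 9 to 67 per sample. Gja1 had 72 to 334, with a coefficient of variation of 31.3 to 72.3% within groups. In 5 against 5 samples the smallest exact permutation p is 0.00794.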
